A study of Danio rerio with 20 samples.

Results

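A set of 100 array probes, of the 43603 measured, carried a signal that was lowered in rnaset2 mutant zebrafish at 3 dpf (days post fertilisation) and differed by less than 2-fold between mutants and WT siblings at 28 hpf (hours post fertilisation) and in adult brain. The probes were selected on measured values. With d as the mean log2 intensity of mutant arrays minus that of WT arrays, a probe had to have d at or under -2 at 3 dpf, which is a 4-fold lower signal, and an absolute d under 1 at both other stages. Every 3 dpf mutant array had to lie below every 3 dpf WT array, and the mean WT intensity at 3 dpf had to be at least 100. The 3 dpf values and the mutant minus WT differences at the other stages therefore describe the selection and were not tested.

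RNA was hybridised to 20 one-colour Agilent zebrafish arrays, 1 sample to each. Whole embryos at 28 hpf gave 4 mutant and 4 WT samples, whole embryos at 3 dpf gave 3 and 3, and dissected brains of fish 1 year old gave 3 and 3. The mutants carried the ENU-generated AO127 allele of rnaset2, the controls of every stage were WT siblings, and no fish received a treatment. The embryos of a sample were pooled, and neither the number of embryos in a pool nor the clutch of each sample is given in the sources used here, so the spread behind a p-value is that of the samples hybridised, and part of it may be technical. At 28 hpf each genotype has samples numbered 1 and 1.1, which were counted as separate samples although the labels do not say whether they were separate pools. One label field gives this youngest stage as 28 dpf, while the sample source and the study's methods give 28 hpf, which was used.

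The rnaset2 gene encodes RNase T2, a ribonuclease that degrades RNA in the lysosome, and its loss causes RNA to accumulate in lysosomes. From 28 hpf to 3 dpf the zebrafish embryo hatches, the basic body plan gives way to working organs such as gut, liver and lens, and many genes are switched on or off as cells stop dividing and differentiate. A lower signal in mutants at 3 dpf can go with a WT signal that is higher than at 28 hpf or with a mutant signal that is lower than at 28 hpf, and the 28 hpf arrays separate these patterns. No table used here gives the gene of a probe. For this reason no function can be given to any probe, the expression of rnaset2 itself was not checked and the tissue markers of embryo and brain were not read. In whole embryos, a smaller tissue and less RNA per cell give the same lower signal and cannot be told apart. The brightness of a probe also depends on its sequence, so intensities were compared between samples for one probe and not between probes as amounts of RNA.

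Of all probes, 421 had d at or under -2 at 3 dpf. In 414 of these every mutant array lay below every WT array, which follows in large part from a mean difference of that size. Over all probes, the arrays separated in this way in 36%, at any size of difference. The limit on the 28 hpf difference left 244 probes, the limit on the adult brain difference 145, and the minimum WT intensity the final 100. The 3 probes just inside the limit on d had values of -2.01, -2.01 and -2, and the 3 just outside it had -1.998, -1.989 and -1.989. At the intensity minimum, the dimmest probe inside had a WT mean of 100.1 and the brightest outside had 93.3. The limits thus fell within a continuous range of values.

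The 100 probes were low on each of the 3 mutant arrays at 3 dpf. Their median log2 intensity was 7.55, 7.47 and 7.73 on these arrays, against 10.26, 10.25 and 9.97 on the WT arrays of that stage. At 28 hpf it was 9.51 to 9.56 on the 4 WT arrays and 9.39 to 9.56 on the 4 mutant arrays. In adult brain it was 6.45 to 6.59 in WT and 6.59 to 6.70 in mutants, below the median of all probes, which was 8.01 on every array. In this median the 3 dpf mutants lay between the embryos of 28 hpf and the adult brains, and the ranges of mutant and WT arrays met or overlapped at both other stages.

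The difference at 3 dpf ranged from -6.51 to -2 with a median of -2.36, beside a median of -0.078 over all probes. In 24 probes the mutant signal was at least 8-fold lower and in 4 at least 16-fold lower, while in 48 it was less than 5-fold lower. The lowest WT array was over 2 times the highest mutant array in 95 probes and over 4 times in 49. The selection asked for separate arrays and a large mean difference, so these gaps follow from it in large part. At 28 hpf the difference was within 0.5 for 71 probes and in adult brain for 79, with medians of 0.03 and -0.09. The shares of all probes with such gaps or such small differences were not computed. The arrays of the genotypes overlapped in 41 probes at 28 hpf and in 71 in adult brain, and lay apart in the others. At 28 hpf all mutant arrays were below all WT arrays in 32 probes and above them in 27, where 20.4% and 22.7% of all probes were. In adult brain they were below in 17 and above in 12, where 19.7% and 20.1% of all probes were. The selection bounded these differences, so the counts are a description.

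The probe with the lowest d was A_15_P149506. At 3 dpf its intensity was 103.0, 91.0 and 83.3 on the mutant arrays and 9281, 7829 and 8078 on the WT arrays, a 90.9-fold difference. Its WT 28 hpf arrays read 101.3, 99.8, 86.3 and 107.8 and its mutant 28 hpf arrays 108.8, 127.0, 120.6 and 118.5. In adult brain the values were 65.2, 47.9 and 66.1 in WT and 56.6, 47.1 and 43.2 in mutants. For this probe the 3 dpf WT embryos were far above every other group, and the 3 dpf mutants read below the 28 hpf mutants and overlapped the 28 hpf WT embryos. Between 28 hpf and adult brain it fell by 0.74 on the log2 scale in WT (limma, adjusted p = 0.00016) and by 1.29 in mutants (limma, adjusted p = 8.9e-07).

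The probe with the highest WT intensity at 3 dpf was A_15_P106877. Its 3 dpf WT arrays read 161600, 167200 and 157900 and its mutant arrays 23890, 25580 and 25910, a 6.46-fold difference. Its 28 hpf arrays were at 19530 to 24880 in WT and at 25190 to 27520 in mutants. Here the 3 dpf mutant arrays overlapped the 28 hpf arrays of both genotypes. In adult brain it was at 191.7, 318.8 and 666.4 in WT and at 483.9, 536.8 and 682.8 in mutants, far below the embryos in both genotypes. Its log2 change from 28 hpf to adult brain was -5.98 in WT (limma, adjusted p = 1.2e-09) and -5.55 in mutants (limma, adjusted p = 2.5e-09).

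Of the 100 probes, 5 rested on 1 WT array. In the probe with the fourth-lowest d, WT replicate 1 read 82470 at 3 dpf, the other WT arrays 35.7 and 37.0, and the mutant arrays 21.3 to 33.8. In the fifth-lowest, WT replicate 1 read 106400, the other WT arrays 147 and 148, and the mutants 78.7 to 105. The probes ranked 9 and 23 were high on WT replicate 2, at 24610 and 1235 against at most 28.1 and 4.59 on the other WT arrays, and the probe ranked 13 on WT replicate 1, at 331.6 against at most 22.1. Without the high array their d was -0.40 to -1.60. Such a gap, of over 3 times between 2 WT arrays at 3 dpf, was found in 1.41% of all probes, and whether it came from the sample or from the spot was not tested. In the other 95 probes the WT arrays differed by at most 2.47 times, the lowest WT array was at least 2.36 times the highest mutant array, and 19 were at least 8-fold lower in mutants.

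The 28 hpf arrays showed several patterns behind the low signal at 3 dpf. A probe was called up or down in a genotype when its mean at 3 dpf was at least 2-fold above or below that at 28 hpf, and level otherwise. In WT embryos 50 probes were up, 30 level and 20 down. In mutants 3 were up, 37 level and 60 down. Over all probes, 10.9% were up and 8.61% down in WT and 14.9% were up and 15.4% down in mutants. Since the 3 dpf arrays chose the probes, these counts are a description.

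With the 2-fold limit, the most frequent pattern, with 36 probes, was a signal up in WT and level in mutants. Of all probes, 2.17% had this pattern. The median change from 28 hpf to 3 dpf in the 36 probes was 2.77 in WT and -0.34 in mutants on the log2 scale. A_15_P149506, A_15_P106877 and A_15_P621681 belong here, as do 4 of the 5 that rested on 1 array, without which 32 remain. The probe ranked 12 shows the pattern without such a gap: its WT arrays read 1346 to 1615 at 28 hpf and 15110, 15770 and 19760 at 3 dpf, and its mutant arrays 1433 to 1529 and then 1270, 1469 and 1690. The WT arrays of the 2 stages lay far apart and the mutant arrays overlapped. In 3 further probes both genotypes were up, by a median of 4.27 in WT and 1.51 in mutants.

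In 29 probes the WT signal was level, which allows changes of under 2-fold, and the mutant signal down. The median changes were -0.24 and -2.64. With a log2 limit of 0.5 in place of 1, 31 probes were down in WT, so some of the 29 fell in WT. The probe with the lowest d among the 29, ranked 14, read 1778 to 2418 in WT and 2000 to 2266 in mutants at 28 hpf. At 3 dpf it read 1020, 1200 and 991.2 in WT and 108.4, 95 and 119.5 in mutants. Its WT change of -0.914 was near the limit, and its WT arrays of the stages did not overlap. In 20 probes the signal was down in both genotypes and further down in mutants, by a median of 4.56 against 2.48 in WT. The probe ranked 2 had this pattern, at 1723 to 1777 in WT and 976.6 to 1558 in mutants at 28 hpf, then at 88.4, 106.9 and 104.9 in WT and 2.84, 3.71 and 3.59 in mutants at 3 dpf. The last values lie near the lowest intensity of any array, 2.14, so the size of d depends on that floor. On log2 of the intensity plus 50 it was -1.49 in place of -4.89.

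Of these 20 probes, 17 had a mutant mean below that of WT siblings at 28 hpf, with a median difference of -0.50, which the selection kept under 1 in size. Over all probes, 48.8% had a lower mutant mean at 28 hpf. Among the 36 probes that were up in WT and level in mutants, 13 were lower in mutants at 28 hpf and the median difference was 0.15. The patterns and this difference share the 28 hpf means: a high WT mean at 28 hpf favours both a fall in WT and a lower mutant mean. These counts are therefore a description and do not date the lowering.

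In 11 probes the genotypes went opposite ways, up in WT and down in mutants, with median changes of 1.37 and -2.07. Only 65 of the 43603 probes, 0.149%, had this pattern. It held 8 of the 24 probes that were at least 8-fold lower at 3 dpf. Opposite changes favour a large difference at 3 dpf by definition, so this count is a description. The probe ranked 3 read 54.5, 105.8, 62.0 and 65.2 in WT and 41.3, 37.8, 32.7 and 39.6 in mutants at 28 hpf. At 3 dpf it read 201.3, 193.4 and 170.9 in WT and 6.50, 6.92 and 7.17 in mutants, and the arrays of the stages did not overlap in either genotype. These mutant values are dim, and on log2 of the intensity plus 50 the d of this probe was -2.07 in place of -4.78. One of the 11, the probe ranked 4 and also among the 8, rested on 1 WT array and had a d of -0.49 without it. A single probe was level in both genotypes.

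Of the 6 conditions, the 3 dpf WT embryos had the highest mean in 57 probes, against 8.28% of all probes, the 28 hpf WT embryos in 22 and the 28 hpf mutants in 17, against 18.1% of all probes each. The 3 dpf mutants had the lowest mean in 28 probes, against 22.4% of all probes. The selection set 3 dpf WT above 3 dpf mutants in every probe, so these ranks describe the selection and were not tested. WT adult brain was lowest in 32 and mutant adult brain in 33, against 19.3% and 17.1% of all probes. The 3 dpf mutant mean was above the WT adult brain mean in 60 of the 100 probes and below it in 40, and the median difference over all 100 was 0.73 on the log2 scale. Of all probes, 60.3% were below the WT adult brain mean, with a median difference of -0.318. This comparison sets whole embryos against brain tissue.

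The change from 28 hpf embryos to adult brain does not use the 3 dpf arrays. At these stages the selection limited the difference between genotypes and not the level. A limit on the difference can still favour probes that are dim in brain in both genotypes. Of the 414 probes lowered at 3 dpf with separate arrays, 205 were beyond the adult brain limit. The change from 28 hpf to adult brain sets whole embryos against dissected brain, so age and tissue cannot be told apart in it. It was tested with limma on the 14 arrays of these stages, with the 3 dpf arrays left out, over all 43603 probes. In WT, 80 of the 100 probes were lower and 12 higher in adult brain at a Benjamini-Hochberg adjusted p under 0.05, where 39.3% of all probes were lower and 42.8% higher. In mutants, 83 were lower and 5 higher, where 39.7% of all probes were lower and 42.2% higher. The median change over the 100 probes was -3.31 in WT and -3.11 in mutants, beside 0.068 and 0.041 over all probes. The selection also asked for a minimum intensity in 3 dpf embryos. Among the 25381 probes that met the intensity minimum and the limits at 28 hpf and adult brain, whatever their difference at 3 dpf, 46.2% were lower and 42.9% higher in WT, with a median change of -0.06, and in mutants 47.5% were lower and 42.2% higher. These 25381 probes were not required to be lowered at 3 dpf. Whether the limits, applied to lowered probes, favoured probes that are low in brain was therefore not tested.

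Most of the falls were at least 2-fold, among the 100 and also over all probes. Of the 100, 73 in WT and 76 in mutants were called lower by at least 2-fold, as were 25.7% and 26% of all probes. Among probes called lower, these were 73 of 80 in WT and 76 of 83 in mutants. Over all probes they were 11211 of 17123 in WT and 11334 of 17317 in mutants. A fall of at least 32-fold was found in 27 of the 100 in WT and 30 in mutants, and in 3.83% and 3.4% of all probes. All 80 probes called lower in WT were also called lower in mutants. The selection limited the difference between genotypes at 28 hpf and in adult brain. This agreement therefore follows in large part from the selection, and the counts in WT and mutants are not independent. The largest fall in WT was that of A_15_P639072, which read 171900, 171900, 156700 and 154200 in WT at 28 hpf and 175.9, 151.9 and 162.1 in WT brain. This was a 1000-fold lower signal, or -9.97 ± 0.277 on the log2 scale (SE; limma, adjusted p = 2.9e-12), and in mutants the log2 change was -9.21 (limma, adjusted p = 6.5e-12), from 107300 to 134000 at 28 hpf to 118.0, 195.2 and 376.9 in brain. At 3 dpf it read 21200, 23500 and 22350 in WT and 4944, 3835 and 6313 in mutants, between the younger and the older stage in both genotypes and lower in mutants. It belongs to the probes down in both genotypes from 28 hpf to 3 dpf.

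Few probes were higher in adult brain. The largest rise in WT was that of A_15_P621681, which read 20.4, 24.1, 19.9 and 27.9 in WT at 28 hpf and 3233, 2836 and 2779 in WT brain, a 129-fold higher signal, or 7.01 ± 0.135 on the log2 scale (SE; limma, adjusted p = 1.1e-13). In mutants it went from 36.2 to 52.9 at 28 hpf to 2782, 2813 and 2773 in brain, a 64.2-fold higher signal (limma, adjusted p = 4.7e-13). At 3 dpf it read 333.0, 419.0 and 380.0 in WT and 72.8, 68.1 and 71.1 in mutants. The genotypes overlapped in brain for this probe and did not overlap in embryos of either stage. Its difference at 3 dpf was -2.41, and -1.82 on log2 of the intensity plus 50. The 5 probes called higher in mutant brain were all called higher in WT brain. Of the others called higher in WT, 5 were not called in mutants and 2 were called lower, with the difference between genotypes held under 1 by the selection.

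The change to adult brain was mixed in 1 of the larger embryo patterns and mostly downward in the others. All 29 probes that were level in WT and down in mutants at 3 dpf, and all 20 that were down in both, were lower in adult brain in each genotype. Of the 36 that were up in WT and level in mutants, 18 were lower and 10 higher in WT brain, with a median change of -0.35, and 21 were lower and 4 higher in mutant brain. Of the 11 that were up in WT and down in mutants, 10 were lower in brain in each genotype. Over all probes of any pattern, 39.3% were lower and 42.8% higher in WT brain, and 39.7% and 42.2% in mutant brain. The shares among all probes of each pattern were not computed, so whether the 100 differ from other probes of their pattern is not known. The embryo patterns and this test share the 28 hpf arrays, so the counts are set side by side without a test.

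Arrays of a condition differed little for most of the 100 probes. The median SD of log2 intensity within a condition was 0.087 in WT and 0.106 in mutants at 28 hpf, 0.124 and 0.187 at 3 dpf, and 0.230 and 0.217 in adult brain. Over all probes it was 0.099 and 0.096, 0.099 and 0.119, and 0.160 and 0.138 in the same order. In adult brain 38 of the probes in WT and 43 in mutants had a mean intensity under 50. For these the small difference between genotypes in brain was read at a dim signal, which limits what it says. The SD in adult brain was over 0.5 for 24 probes in WT and 11 in mutants, against 12.1% and 9.45% of all probes. At 3 dpf it was over 0.5 for 8 probes in WT and 1 in mutants, against 4.74% and 4.54% of all probes. At 3 dpf 24 probes had a mutant mean under 50 and 4 under 10. The shares of all probes under these intensities were not computed.

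Some probes read nearly alike on every array. Of the 100, 10 formed 5 pairs whose log2 values differed by less than 0.5 on each of the 20 arrays, by at most 0.180 to 0.437 in a pair. Whether the probes of a pair measure the same gene is not known here. Counting each pair once leaves 95 probes, of which 76 were lower and 12 higher in WT brain and 79 lower and 5 higher in mutant brain than at 28 hpf.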

How the data were processed

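Values of 20 arrays were used as deposited: fluorescence intensities of 43603 probes on a linear scale, quantile normalized by the authors, so that every array has the same distribution and a change is relative to the other probes. The methods name danRer11 for re-annotation; the authors' later restriction to exonic probes and to a single probe for each gene was not applied. Neither the scanner software nor any background correction is stated, and without slide or scan records no batch could be tested. No table used here gives the gene of a probe, so the gene and marker lists prepared were not applied and sequences are not shown. Probes are named by ID only where they had the lowest d, the highest 3 dpf WT intensity, or the largest rise or fall to WT adult brain among those called; others are given by rank of d, chosen after their values were seen.

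The selection was applied to log2 intensities. Adult brain and 28 hpf were compared with limma 3.58.1 under R 4.3.3, fitting 4 group means to 14 arrays (10 residual and 1.71 prior degrees of freedom), two-sided, with Benjamini-Hochberg adjustment over all probes, a threshold of 0.05 and no filter on dim probes. The fit was first tested on simulated data. Precision is limited by the number of arrays. The members, lists and tests were chosen with earlier results of these data known. Alternatives covered the log scale, scaling, arrays in the fit, variance model, weights, thresholds, averaging, pairing and single arrays.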

Additional observations from a re-analysis of the deposited data

Results flagged for a closer look

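No 28 hpf sample stood apart from the other 3 of its group by Dixon's gap test, in the median over the 100 probes or in the 4 probes named by ID, over 10 groups of 4. The groups of 3 at 3 dpf and in adult brain are too small for this test, and the 5 probes resting on 1 WT array at 3 dpf are given above.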

How the results depend on the processing

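The number of selected probes depended on the scale and the limits. It was 64 on log2 of intensity plus 50, of which 57 were among the 100, 280 with d at or under -1.5, 41 at or under -2.5, and 56 with both other differences under 0.5. With group medians, chosen after seeing the data, it was 109, of which 85 were among the 100. Leaving out each 3 dpf array in turn gave 94 to 114 probes and kept 89 to 97 of the 100. With a pattern limit of 0.5 in place of 1 on the log2 scale, 53 probes were up in WT and 31 down. At that limit, 25 were up in WT and down in mutants. With a limit of 2, 28 were up in WT and 14 down. In mutants 48 were then down, and 0 were up in WT and down in mutants. Up in WT and level in mutants was the most frequent pattern at the limit of 1 and not at the other limits. Without the 5 probes resting on 1 WT array, an alternative chosen after seeing the data as was counting look-alike pairs once, 45 were up in WT, 59 down in mutants and 10 both.

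In adult brain against 28 hpf no alternative moved the number of probes called by 1.5 times, and no probe called in both settings changed sign. Without one array at a time it was 91 to 95 in WT and 85 to 89 in mutants. Deviations from the group means correlated at -0.045 to 0.005 between 28 hpf and adult brain arrays of a genotype sharing a number. The numbers thus showed no pairing across these stages. Pairing of mutant with WT arrays within a stage was not checked. Adding the replicate number as a block gave 91 called probes in WT, 79 lower and 12 higher, and 87 in mutants, 82 lower and 5 higher. With samples 1 and 1.1 of 28 hpf averaged, 79 were lower and 12 higher in WT, and 80 lower and 6 higher in mutants. The p-values and SEs given for single probes count 1 and 1.1 as separate samples. Dim probes near 2.14 limit the size of folds, and the 3 samples of a group limit the precision.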
